A study of Mus musculus with 37 samples.

Results

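The RNA of complement components and regulators was followed across 37 cultures of primary mouse astrocytes. The list named C1qa, C1qb, C1qc, C3, C4b, Serping1, C1ra, C3ar1 and C5ar1, and every probe set annotated to one of these 9 genes under its current or a former name was taken. Of the 9 genes, 8 had an annotated probe set, with 14 probe sets among the 45101 of the table, and C3 was not analysed here. C4b was measured only by a probe set annotated to C4a and C4b together, written C4a/C4b below, and a second probe set of C1ra was annotated to C1rb and C1ra together, written C1rb/C1ra. Neither pair of genes can be told apart by its shared probe set.

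Complement is a cascade of plasma and tissue proteins that tags particles, microbes and, in the brain, synapses for removal. In the classical pathway C1q, built of the chains encoded by C1qa, C1qb and C1qc, binds the target, the proteases C1r and C1s carried by it become active, and C4 and C2 are cleaved so that C3 can be cut in turn. Serping1 encodes the C1 inhibitor, which blocks C1r and C1s. The fragments C3a and C5a act through the receptors encoded by C3ar1 and C5ar1, which are typical of myeloid cells. In brain tissue C1q is made mainly by microglia, whereas C4 is made by astrocytes as well.

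The cells came from newborn mice at P0 to P1 of 129S4/SvJae (129) or C57BL/6J (B6) and were grown in DMEM with serum. They carried, as stable transfectants, a pcDNA3.1-hygro plasmid with CDCA7L or the same vector without insert, delivered by nucleofection, so that vector cells too had been transfected and carried the plasmid backbone. No source used here names the species of the insert. There were 5 Cdca7l and 5 vector arrays of 129 males, 4 and 4 of 129 females, 5 and 5 of B6 males, and 4 and 5 of B6 females. The labels describe independent primary isolates and give each array a clone label such as 3(2), and 15 labels stand on both a Cdca7l and a vector array of the same strain and sex. Each value is a deposited log2 expression value of 1 array, comparable across arrays within a probe set and not between probe sets.

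Before the members, 3 facts of the arrays bear on their values. RNA of Cdca7l itself lay between 10.15 and 14.42 on the Cdca7l arrays, against 4.12 to 10.43 on the vector arrays. The upper quartile of the values was 9.03 to 9.51 on 36 arrays and 8.36 on 129 female vector 1(3). Sex-linked RNA went against the label of B6 female vector 5.1(1): Xist, transcribed from the inactive X, read 2.40 there and 10.71 to 12.20 in the remaining 16 females, and the Y-linked Eif2s3y read 11.91, within the male range of 11.73 to 12.71. The mean level of 10 astrocyte markers was 9.24 to 12.89 on all arrays, and 8 to 10 of them exceeded background on each. Of 16 microglia and macrophage markers, Cx3cr1, Trem2, P2ry12 and Fcgr3 exceeded background on no array, Fcer1g and Cd68 on all 37 and Lyz2 on 36. The mean level of the list ranged from 2.63 to 7.36. Endothelial markers averaged 2.07 to 3.16, and the 6 fibroblast markers averaged 6.20 to 12.93 on 129 arrays and 5.08 to 7.27 on B6 arrays.

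Promoters of the C1q chains are shown because C1qa, C1qb and C1qc are neighbours on chromosome 4 and their RNA peaked on the same arrays, and that of C1ra because its RNA followed another pattern. RefSeq's promoter table for GRCm38.p6 held 6 of the 9 genes (C1qb, C1qc, C1ra, C3, C3ar1 and C5ar1). Each line below gives the 250 bases before the start that this table uses, 5′ to 3′ on its own strand, at chr4:136886201-136886450 on the minus strand for C1qb, chr4:136892915-136893164 on the minus strand for C1qc and chr6:124512371-124512620 on the plus strand for C1ra. Capitals mark GAGGAA on either strand, the core bound by PU.1, a transcription factor of myeloid cells.
C1qb: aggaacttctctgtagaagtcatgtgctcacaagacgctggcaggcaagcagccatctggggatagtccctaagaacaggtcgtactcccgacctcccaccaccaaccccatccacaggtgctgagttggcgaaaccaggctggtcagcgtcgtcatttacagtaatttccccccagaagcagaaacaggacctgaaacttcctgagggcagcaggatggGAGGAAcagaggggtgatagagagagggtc
C1qc: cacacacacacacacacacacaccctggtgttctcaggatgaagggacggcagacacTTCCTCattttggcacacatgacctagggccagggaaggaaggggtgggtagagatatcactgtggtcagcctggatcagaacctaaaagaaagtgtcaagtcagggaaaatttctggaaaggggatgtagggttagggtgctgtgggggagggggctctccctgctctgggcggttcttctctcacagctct
C1ra: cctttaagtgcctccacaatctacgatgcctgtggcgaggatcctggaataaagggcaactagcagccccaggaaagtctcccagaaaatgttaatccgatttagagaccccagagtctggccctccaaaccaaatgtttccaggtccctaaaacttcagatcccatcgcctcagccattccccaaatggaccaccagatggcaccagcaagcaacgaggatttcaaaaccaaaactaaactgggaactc

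The start used for C1qc, like that for C5ar1, lies inside the annotated span of the gene, so a part of its window does too. The C1qb match begins 30 bases before the start used, and the C1qc match, on the other strand, 193 bases before it. GAGGAA stood in 2 of the 6 windows and in 23.3% of 32851 windows of the same length. The windows of C3ar1 and C5ar1 lacked it, although both receptors were high on the same vector arrays as the C1q chains. TTGCNNAA, a C/EBP site, was found in the C3 window alone of the 6, and in 9.6% of all windows. The interferon-stimulated response element (3.0% of windows), TTCNNNGAA (gamma-activated site, 7.0%) and GGGNNTTCC (NF-kB, 5.0%) were found in 0 of the 6. All 5 were searched on both strands, and a match is a description of the letters alone.

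The members fell into 2 patterns of expression. Serping1, C1ra, C1rb/C1ra and C4a/C4b were well expressed in these cultures, whereas the C1q chains and both anaphylatoxin receptors were at background on most arrays and high on a few. Background was set at 3.19, the median of the whole table. Serping1, C1ra and C1rb/C1ra exceeded it on all 37 arrays, with means of 11.70, 9.37 and 11.84, and C4a/C4b on 33, with a mean of 7.89 and a range of 2.03 to 12.41. The lead probe set of C1qb, the one with the highest mean, exceeded it on 18 arrays, those of C3ar1 and C5ar1 on 8 each, that of C1qc on 4 and that of C1qa on 3. Probe sets above the level on at least 4 arrays were tested, which held for 10 of the 14 member probe sets, from 7 genes. The others were that of C1qa, 1417063_at of C1qb and 1419482_at of C3ar1, each above on the same 3 arrays, and 1422190_at of C5ar1, which was above on none.

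**Figure D1:**
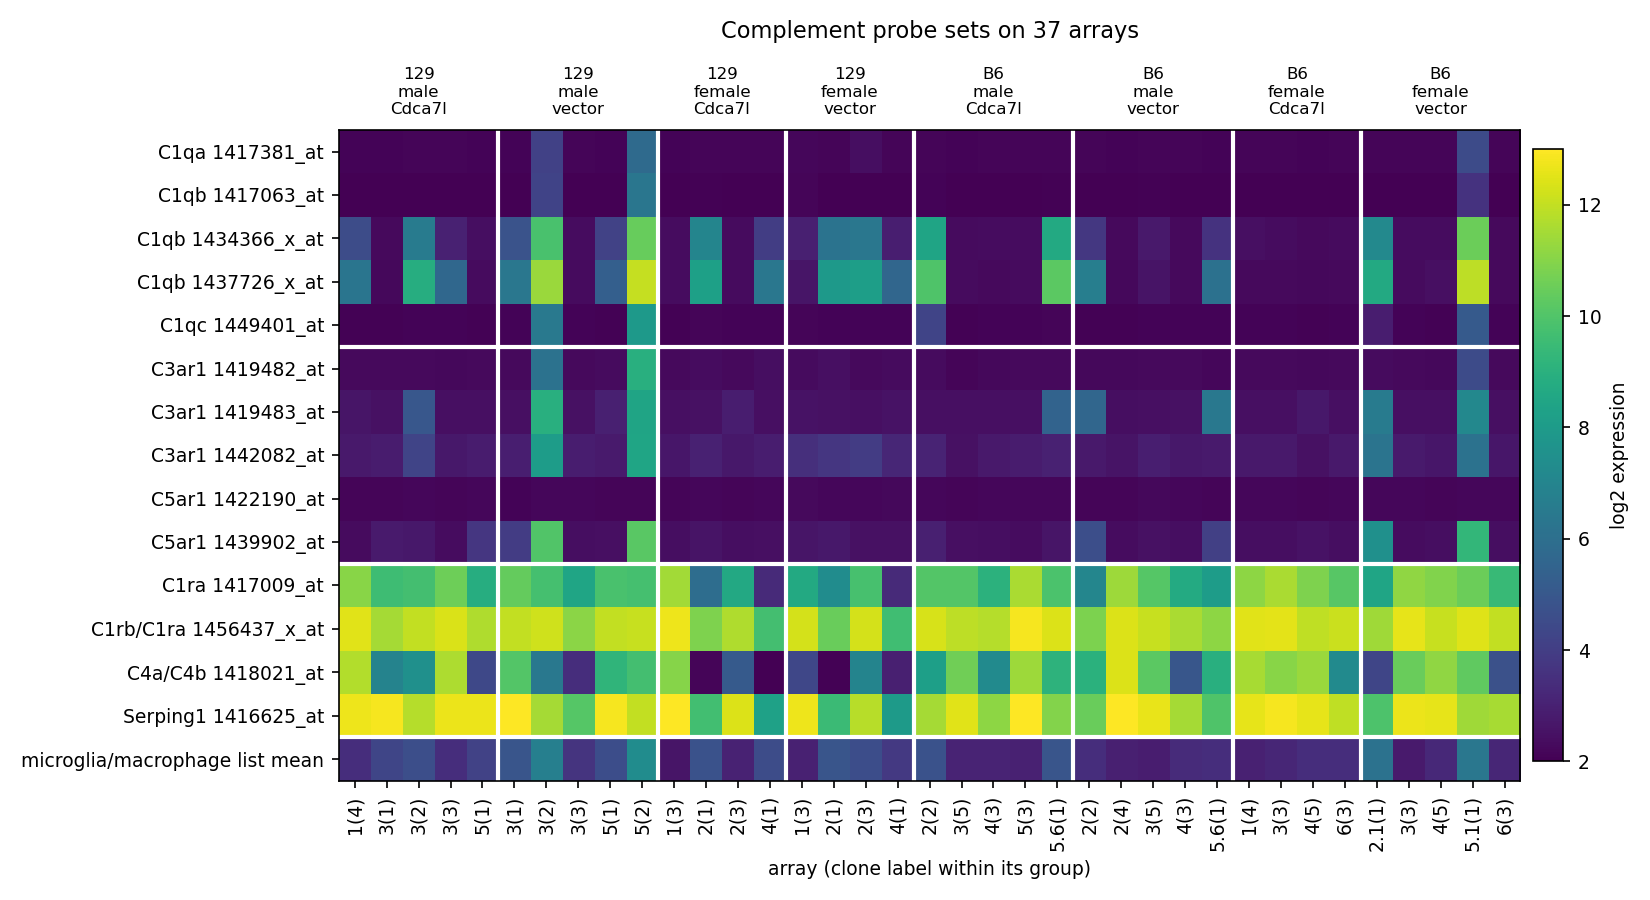
Log2 expression (colour, 2 to 13) of the 14 member probe sets (rows) and the mean of the microglia and macrophage markers (last row) on the 37 arrays (columns, by group, Cdca7l left of vector). Serping1, C1ra, C1rb/C1ra and C4a/C4b are bright on most arrays, and the C1q chains and both receptors on a few, mainly 129 male vector 3(2) and 5(2) and B6 female vector 2.1(1) and 5.1(1).

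Among the C1q chains, C1qa was at 2.10 to 2.42 on 34 arrays and reached 4.13 on 129 male vector 3(2), 5.79 on 129 male vector 5(2) and 4.53 on the array labelled B6 female vector 5.1(1). C1qc was above background on those same 3 arrays, at 6.45, 7.92 and 5.13, and on B6 male Cdca7l 2(2), at 4.26. The probe set 1417063_at of C1qb stood at 1.93 to 2.15 except on the 3 vector arrays, where it read 4.22, 6.31 and 3.61. Each chain thus had its 3 highest values on these arrays, none of them a Cdca7l array.

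The lead probe set of C1qb, 1437726_x_at, whose suffix marks probes that can bind other transcripts, was bright on far more arrays than the rest. Its values in 129 males were 6.29, 2.25, 8.85, 5.69 and 2.33 on Cdca7l arrays, against 6.37, 11.36, 2.32, 5.31 and 12.04 on vector arrays. In 129 females they were 2.37, 8.27, 2.33 and 6.36 with Cdca7l, against 2.64, 7.93, 8.17 and 5.62 with vector. Within both groups of 129 mice the plasmids overlapped, and each plasmid had arrays at background. In B6 males the C1qb values were 9.97, 2.33, 2.28, 2.33 and 10.21 with Cdca7l, against 6.71, 2.24, 2.60, 2.28 and 6.10 with vector. In B6 females they were 2.25 to 2.30 on all 4 Cdca7l arrays, against 8.67, 2.31, 2.44, 11.90 and 2.27 on vector arrays. In B6 mice the high values thus came from 2 arrays of each of 3 groups, and B6 female Cdca7l had none. The other x_at probe set of C1qb, 1434366_x_at, exceeded background on 16 arrays and reached 10.52.

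Of the receptors, C5ar1 (1439902_at) read 2.34, 2.80, 2.72, 2.37 and 3.74 on 129 male Cdca7l arrays, against 3.95, 10.00, 2.40, 2.47 and 10.17 on 129 male vector arrays. In B6 females it was 2.39 to 2.53 with Cdca7l, against 7.51, 2.37, 2.39, 9.30 and 2.39 with vector. In both groups the receptor was high on 2 of 5 vector arrays. The 129 male vector array at 3.95 lay just above the highest Cdca7l array, at 3.74, and the remaining vector arrays overlapped with Cdca7l. B6 males had 2.97, 2.44, 2.41, 2.38 and 2.61 with Cdca7l, against 4.65, 2.37, 2.50, 2.40 and 4.10 with vector, and 129 females stayed at background with either plasmid, at 2.39 to 2.60 with Cdca7l and 2.49 to 2.71 with vector.

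C3ar1 (1419483_at), the C3a receptor, was at 2.62, 2.48, 4.97, 2.45 and 2.44 on 129 male Cdca7l arrays, against 2.46, 8.95, 2.50, 2.98 and 8.43 on 129 male vector arrays. In B6 males it was 2.47, 2.44, 2.45, 2.47 and 5.52 with Cdca7l, against 5.61, 2.40, 2.46, 2.49 and 6.40 with vector. In B6 females it was 2.43 to 2.71 with Cdca7l, against 6.58, 2.47, 2.45, 7.15 and 2.45 with vector. The high vector arrays were the same as for C5ar1 in each of these groups, and 129 females again stayed at background. The other tested probe set of C3ar1, 1442082_at, read 8.09 and 8.47 on 129 male vector 3(2) and 5(2) and 6.22 and 6.15 on B6 female vector 2.1(1) and 5.1(1). In 129 females this probe set read 2.67 to 3.02 with Cdca7l, against 3.49, 3.73, 3.94 and 3.20 with vector, all near background. The fitted difference there was -0.77 ± 0.92 (log2, SE; limma unadjusted p = 0.41).

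**Figure D2:**
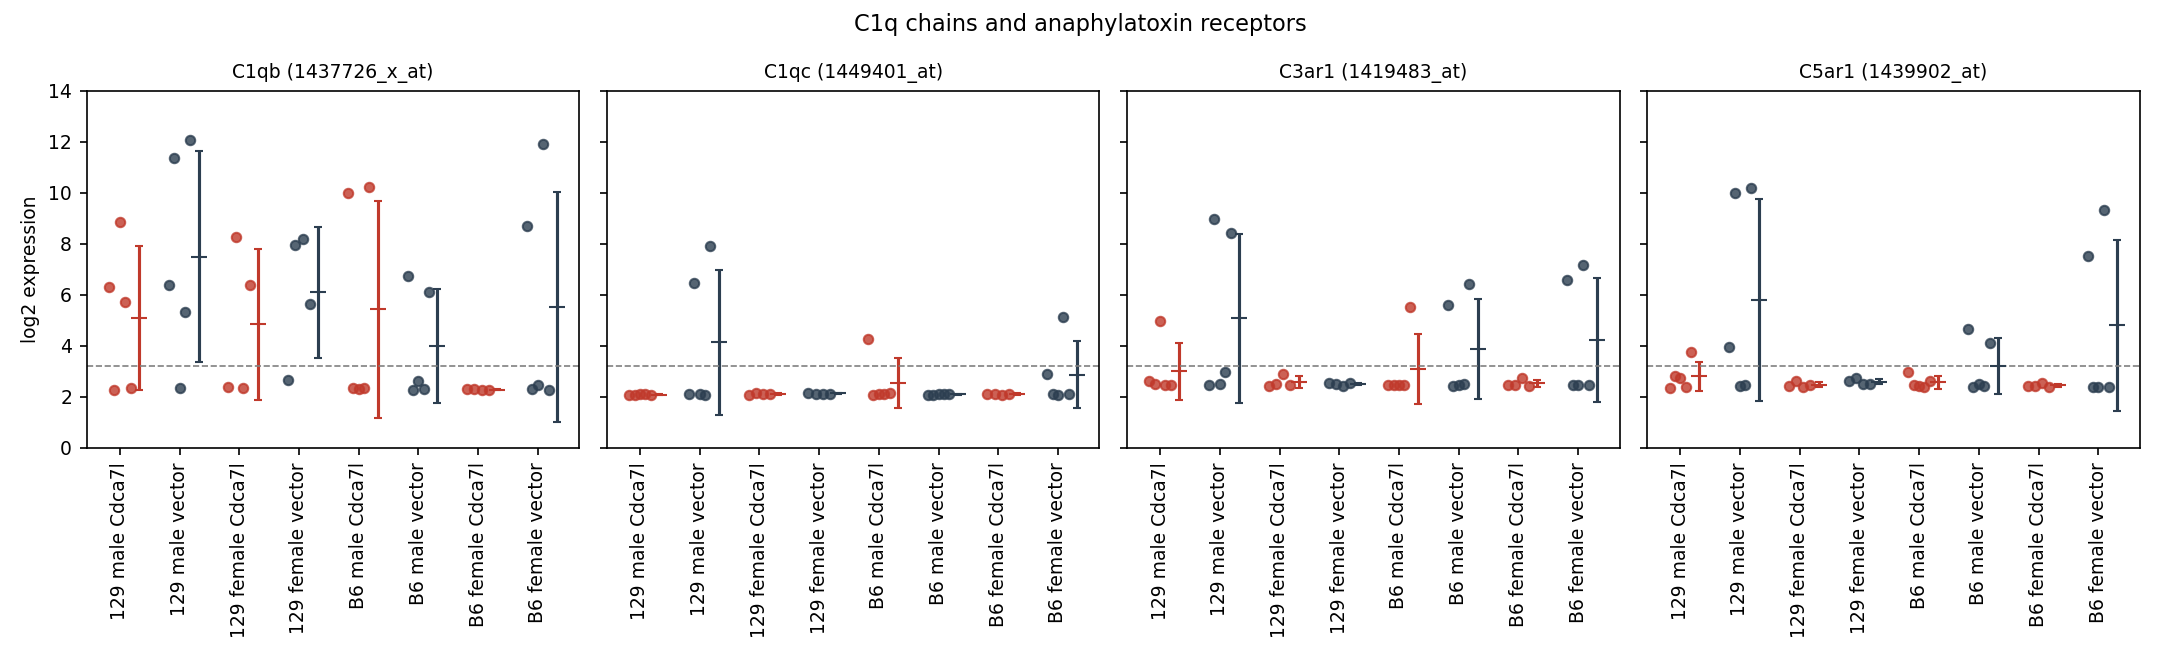
Log2 expression of C1qb, C1qc, C3ar1 and C5ar1 by group (x axis, Cdca7l in red left of vector in dark blue); points are arrays, the bar beside them the mean ± SD, and the dashed line the background level of 3.19. Values of C1qc, C3ar1 and C5ar1 in 129 female arrays stay at background, and the highest points of the 3 genes belong to 129 male vector and B6 female vector.

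The first question of the design is whether the Cdca7l plasmid altered these genes. No member did so past the threshold. Averaged over the 4 strain and sex groups, 0 of the 10 tested probe sets passed at a limma adjusted p under 0.05, where 2 of 25579 probe sets (0.00782%) passed in all and 324 had an unadjusted p under 0.05. In 129 males, 129 females, B6 males and B6 females 0 of the 10 passed as well, where 0% of all tested probe sets were called, with 422, 503, 538 and 142 at an unadjusted p under 0.05. The background is thus itself near or at 0, and the absence of calls is not particular to complement. Arrays sharing a clone label were treated as separate here, and p-values measure the spread between these arrays.

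Differences of the C1q chains and receptors were negative and had wide errors. C5ar1 lay at -1.53 ± 0.64 (log2, SE) averaged over groups, with unadjusted p = 0.0223 and adjusted p = 0.999 in limma. C3ar1 lay at -1.13 ± 0.58 by its lead probe set and at -1.01 ± 0.43 by 1442082_at (limma unadjusted p = 0.0257). C1qb lay at -1.36 ± 1.06 and C1qc at -0.60 ± 0.39, and the 6 tested probe sets of these genes all had negative differences, none past the threshold. The median difference over the 10 member probe sets was -0.79, and that over all tested probe sets 0.020.

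In 129 males C5ar1 averaged 2.79 ± 0.56 with Cdca7l and 5.80 ± 3.96 with vector (SD, n = 5 each), a difference of -3.00 ± 1.22 (SE; limma unadjusted p = 0.0192, adjusted p = 1). C1qc averaged 2.08 ± 0.02 with Cdca7l and 4.13 ± 2.83 with vector, with 2 of the 5 vector arrays and no Cdca7l array above background. C1qc met the filter for testing with 4 arrays in all, these 2 among them, so neither a fold nor a p-value is given. The differences rested on 129 male vector 3(2) and 5(2): that of C5ar1 was -1.95 without the first and -1.91 without the second, and that of C1qc -1.47 and -1.10. The array 129 male Cdca7l 3(2), which shares its clone label with the first of these, had C5ar1 at 2.72, C3ar1 at 4.97, C1qc at 2.10 and C1qb at 8.85, and 129 male vector 5(2) shares a label with no Cdca7l array.

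In B6 females C5ar1 averaged 2.44 ± 0.06 with Cdca7l (SD, n = 4) and 4.79 ± 3.36 with vector (SD, n = 5), at least 3.04-fold lower. C1qb was at least 5.02-fold lower and C3ar1 at least 2.05-fold lower by their lead probe sets, each with limma adjusted p = 1. The C5ar1 difference of -2.36 ± 1.29 became -1.23 without the array labelled B6 female vector 5.1(1) and -1.68 without B6 female vector 2.1(1), and that of C1qb, -3.24 ± 2.16, became -1.64 and -2.45. Neither array shares a clone label with a Cdca7l array. With the clone label as a fixed replicate block, which uses the 3 labelled pairs alone, the differences in B6 females were 0.057 ± 1.09 for C5ar1, 0.081 ± 0.69 for C3ar1 and -0.07 ± 1.42 for C1qb. In B6 males C1qb lay at 1.44 ± 2.03, C5ar1 at -0.65 ± 1.22 and C3ar1 at -0.80 ± 1.11, with no common direction.

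The mean of the microglia and macrophage markers was highest on the same vector arrays. The mean level of the 16 markers was 7.36 on 129 male vector 5(2), 6.73 on 129 male vector 3(2), 6.38 on the array labelled B6 female vector 5.1(1) and 6.13 on B6 female vector 2.1(1), and at most 4.89 elsewhere. On these 4 arrays 9 to 10 of the 16 were above background. That count was not particular to them, with up to 9 above in 129 females with either plasmid and up to 8 in B6 male Cdca7l. By group it ranged over 3.42 to 4.66 in 129 male Cdca7l and 3.66 to 7.36 in 129 male vector, and over 2.99 to 3.43 in B6 female Cdca7l and 2.79 to 6.38 in B6 female vector. In 129 females it was 2.63 to 4.79 with Cdca7l and 3.03 to 4.89 with vector, and in B6 males 3.02 to 4.89 and 2.90 to 3.44. Csf1r, the receptor on which microglia depend, exceeded background on 3 Cdca7l and 8 vector arrays, Ptprc, the leukocyte antigen CD45, on 2 and 7, and Ctss on 4 and 8. Other markers were more even, with Tyrobp above on 5 Cdca7l and 7 vector arrays, Laptm5 on 10 and 12, Cd53 on 11 and 14 and Tmem119 on 2 and 2. Lyz2 was above on 17 and 19, and Fcer1g and Cd68 on all arrays. Cd53 and Tmem119 were highest on 129 male Cdca7l 3(1), at 12.23 and 10.53. Of the 10 tested markers 1 was positive for Cdca7l minus vector on average, with a median of -0.93, and 0 were called. The groups differed, with medians of -2.32 in 129 males, -1.56 in B6 females and -0.30 in 129 females. In B6 males 10 of 10 markers were positive, with a median of 0.82. There C1qb was positive too (1.44), whereas C5ar1 (-0.65) and C3ar1 (-0.80) were negative. In bulk RNA, fewer cells of a type and less RNA per cell cannot be told apart, and the part of these markers in the differences of C1q and the receptors was not tested.

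The members expressed in most cultures had positive differences that did not pass. Averaged over groups, C4a/C4b lay at 0.99 ± 0.92, C1ra at 0.56 ± 0.56, Serping1 at 0.55 ± 0.43 and C1rb/C1ra at 0.26 ± 0.24 (log2, SE; limma adjusted p = 0.999 each). Serping1 in 129 males averaged 12.53 ± 0.44 with Cdca7l and 11.90 ± 1.19 with vector (SD, n = 5 each), and in B6 females 12.50 ± 0.40 (n = 4) and 11.63 ± 1.11 (n = 5). C1ra in B6 males averaged 10.13 ± 0.92 with Cdca7l and 9.07 ± 1.70 with vector (n = 5 each). Each of these 3 group differences was smaller than the SD of its vector arrays. The median difference of the 10 astrocyte markers was 0.10, with 9 of 10 positive and 0 called.

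The single arrays show how far the groups overlapped. Serping1 in 129 males read 12.73, 12.84, 11.76, 12.66 and 12.67 with Cdca7l, against 13.05, 11.51, 10.09, 12.86 and 11.98 with vector. In B6 males it read 11.52, 12.49, 11.11, 13.14 and 10.96 with Cdca7l, against 10.50, 13.07, 12.65, 11.50 and 9.98 with vector. In B6 females it read 12.61, 12.85, 12.60 and 11.93 with Cdca7l, against 9.94, 12.69, 12.59, 11.42 and 11.54 with vector. In each of these groups the lowest array carried vector, and the ranges overlapped. C1ra in 129 males read 11.04, 9.57, 9.71, 10.57 and 8.84 with Cdca7l, against 10.41, 9.77, 8.46, 9.83 and 9.77 with vector. In B6 males it read 10.07, 10.06, 9.06, 11.59 and 9.88 with Cdca7l, against 7.04, 11.39, 10.09, 8.71 and 8.10 with vector. The lowest C1ra array of both male groups carried vector too. C4a/C4b had the widest range of the member probe sets, with 8.21, 10.61, 7.26, 11.39 and 9.11 in B6 male Cdca7l, against 9.01, 12.41, 10.23, 4.93 and 8.93 in B6 male vector. C1rb/C1ra had the narrowest range of these 4 probe sets, at 9.73 to 12.84 on Cdca7l arrays and 9.62 to 12.58 on vector arrays, lowest on 129 female 4(1) with either plasmid.

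Complement genes of this kind respond to interferon and to inflammatory cytokines, so lists of 10 interferon response and 10 acute phase genes were set beside them. For Cdca7l minus vector 9 of the 10 interferon response genes were positive averaged over groups, with a median of 0.25, but the medians of the groups had different signs. The list had 9 of 10 positive in 129 females (median 0.39) and in B6 males (median 1.23), 4 of 10 in B6 females (median -0.0063) and 1 of 10 in 129 males (median -0.54). The acute phase genes had 9 of 10 positive averaged over groups (median 0.27), 10 of 10 in B6 males (0.96), 8 of 10 in 129 females (0.20) and in B6 females (0.064), and 3 of 10 in 129 males (-0.16). None of either list was called there, as none of the members was.

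**Figure D3:**
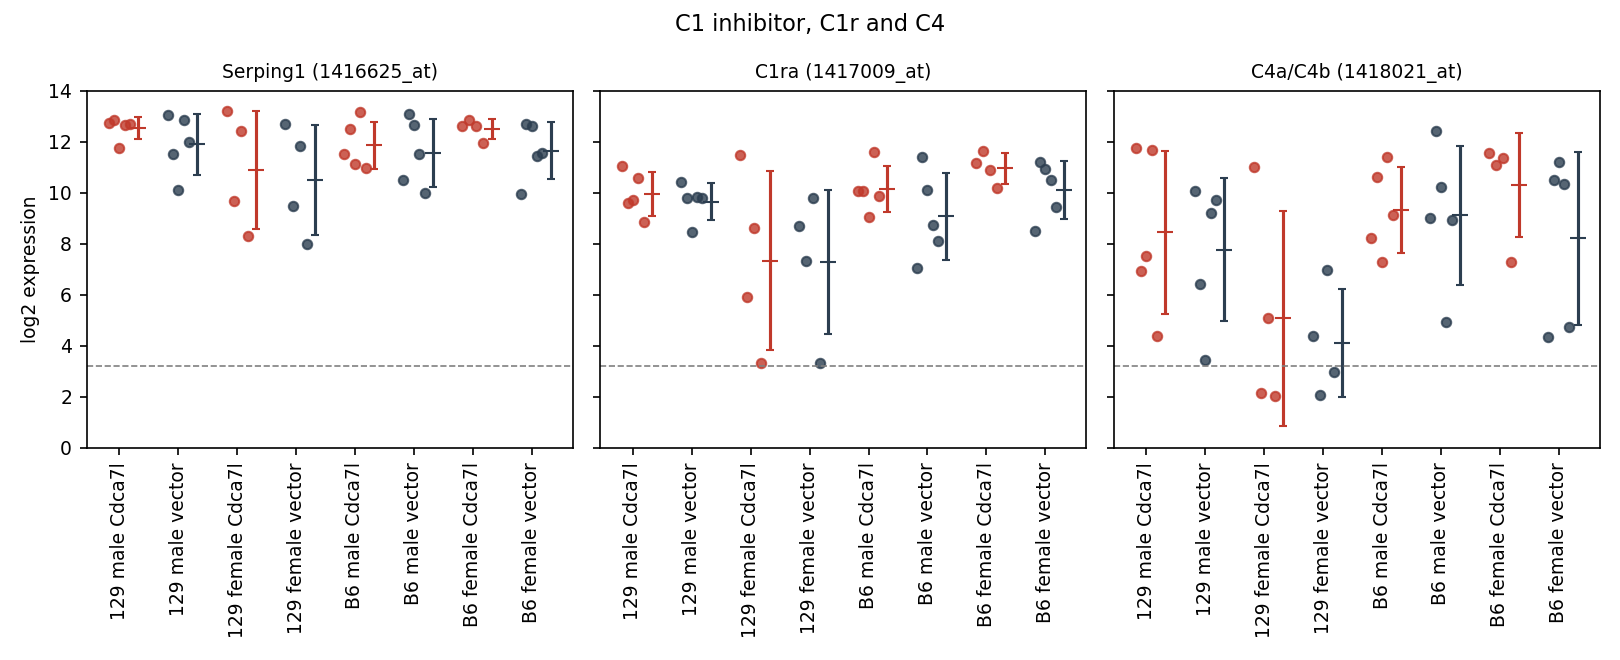
Log2 expression of Serping1, C1ra and C4a/C4b by group (x axis, Cdca7l in red left of vector in dark blue); points are arrays, the bar the mean ± SD, the dashed line the background level of 3.19. Cdca7l and vector points overlap in every group, and 129 females hold the lowest points of each gene.

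Strain was the second axis of the design, and C1ra and C4a/C4b were lower in 129 than in B6 averaged over sex. Within the sexes they were called in females and not in males. Averaged over sex and plasmid, C1ra was lower in 129 by 1.51 on the log2 scale (-1.51 ± 0.56, SE; 2.85-fold, limma adjusted p = 0.0447) and C4a/C4b 7.42-fold lower (-2.89 ± 0.92, adjusted p = 0.0209). These were 2 of the 10 tested probe sets, where 25.2% of all tested probe sets were called, and 14.6% of all tested were called lower, so the count lies near the background and is no result about complement as a list. Members split 5 positive to 5 negative, with a median of 0.0080, and the median of all tested probe sets was 0.0047. Serping1 lay at -0.43 ± 0.43 (adjusted p = 0.486), C1rb/C1ra at -0.49 ± 0.24 (adjusted p = 0.123) and C1qb at 1.57 ± 1.06, none past the threshold in limma. C4a/C4b kept its call with each of the 37 arrays left out in turn, and C1ra without 15 of them, losing it without the other 22 (adjusted p between 0.0517 and 0.0929). With the clone label as a random block across arrays both calls were lost (C4a/C4b -2.87, adjusted p = 0.0694; C1ra -1.53 ± 0.60, adjusted p = 0.0754).

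Within the sexes, the calls came from females. In 129 females C1ra fell to 7.31 ± 2.96 (SD, n = 8), against 10.48 ± 0.99 in B6 females (n = 9), which was 9.33-fold lower (-3.22 ± 0.82, SE; limma adjusted p = 0.0079). C4a/C4b fell to 4.58 ± 3.13 in 129 females, against 9.14 ± 2.92 in B6 females, 25.6-fold lower (-4.68 ± 1.35, adjusted p = 0.0174). C1rb/C1ra fell 1.98-fold (-0.98 ± 0.35, adjusted p = 0.0473), and Serping1 lay at -1.38 ± 0.64 (adjusted p = 0.128). With 3 of 10 member probe sets called, all lower, against 17.6% of all tested probe sets in either direction and 12% lower, and C1ra present in 2 of the 3, the count is again close to the background. The median over the members was -0.91, and that over all tested probe sets -0.053.

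The single arrays show where the 129 female values came from. C1ra read 11.49, 5.92, 8.62 and 3.30 on the Cdca7l arrays 1(3), 2(1), 2(3) and 4(1), against 8.68, 7.33, 9.80 and 3.31 on the vector arrays of the same labels. C4a/C4b read 11.02, 2.15, 5.10 and 2.03 on those Cdca7l arrays, against 4.36, 2.08, 6.95 and 2.97 on the vector arrays. Serping1 read 13.20, 9.65, 12.40 and 8.29 on the Cdca7l arrays, against 12.70, 9.48, 11.81 and 7.98 on the vector arrays. Labels 4(1) and 2(1) were the lowest with either plasmid for all 3 genes, and the 8 arrays come from 4 clone labels. B6 female C1ra was 11.15, 11.62, 10.87 and 10.16 with Cdca7l, against 8.48, 11.19, 10.93, 10.51 and 9.43 with vector. B6 females thus overlapped with 129 female 1(3) and 2(3), and with no array of 2(1) or 4(1). C4a/C4b in B6 females was 11.55, 11.06, 11.35 and 7.26 with Cdca7l, against 4.32, 10.49, 11.19, 10.33 and 4.72 with vector, and exceeded background on all 9, as against 4 of 8 in 129 females.

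Astrocyte markers were low on the same clone labels. Their mean level was 9.75 on Cdca7l and 9.24 on vector arrays of 129 female 4(1), 10.64 and 10.65 on those of 2(1), and 11.87 to 12.73 on the other 129 female arrays, while it lay at 11.21 or above on all arrays of the other groups. In females 2 of the 10 astrocyte markers were positive for 129 minus B6, with a median of -0.94, and Aqp4, the water channel of astrocyte endfeet, and Slc1a3, a glutamate transporter, were called lower. Of the 5 tested ependymal and choroid plexus markers 1 was positive, with a median of -2.22, and Ccdc153, Foxj1 and Rsph1, genes of motile cilia, were called lower. The mean level of the ependymal list was 2.68 to 3.71 on the arrays of 4(1) and 2(1) and 4.91 to 6.70 on the other 129 female arrays. Fibroblast markers had 5 of 6 positive, with a median of 0.96 and Col3a1 called higher. Of the 10 interferon response genes 0 were positive, with a median of -0.59 and Rsad2, an antiviral enzyme, called lower, and of the acute phase genes 4 of 10, with a median of -0.13. The part of any of these in the lower C1ra and C4a/C4b was not tested.

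The C1ra call in females stood with each of the 17 arrays left out in turn, at -3.91 to -2.55 (limma adjusted p between 0.00043 and 0.0287), and with labels entered as a random replicate block (-3.17 ± 0.89, adjusted p = 0.0248). C4a/C4b lost its call with that block (-4.63 ± 1.63, adjusted p = 0.0712) and without 129 female Cdca7l 4(1) (adjusted p = 0.0522) or 2(1) (adjusted p = 0.0508). C1rb/C1ra lost its call without 11 of the 17 arrays. In a fit of the compared groups alone no member passed (adjusted p = 0.0733 for C1ra and 0.0603 for C4a/C4b). Without both 129 female vector 1(3) and the array labelled B6 female vector 5.1(1), C1ra lay at -3.40 (adjusted p = 0.0109) and C4a/C4b at -4.46 (adjusted p = 0.0385).

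In males no member passed. C1ra averaged 9.80 ± 0.77 in 129 males and 9.60 ± 1.41 in B6 males (SD, n = 10 each), and C4a/C4b 8.10 ± 2.86 and 9.21 ± 2.14. The differences were 0.20 ± 0.75 and -1.11 ± 1.24 (SE), and 0 of the 10 member probe sets were called in limma, where 10.5% of all tested probe sets were. Array values of C4a/C4b ran over 11.74, 6.92, 7.50, 11.65 and 4.39 in 129 male Cdca7l and 10.05, 6.40, 3.44, 9.20 and 9.72 in 129 male vector, overlapping widely with the 4.93 to 12.41 of B6 males. C5ar1 lay at 1.41 ± 0.86 and C3ar1 by 1442082_at at 1.26 ± 0.58 (adjusted p = 0.178), and 9 of the 10 probe sets were positive. Microglia and macrophage markers had 9 of 10 positive there, with a median of 1.29, and Cd53, a leukocyte tetraspanin, and Tmem119, a microglial membrane protein, were called higher. Fibroblast markers differed more, with 6 of 6 positive, a median of 4.15, and Col1a1, Col1a2, Col3a1, Dcn and Lum called higher. The part of either list in the differences of the members was not tested. The strain difference in males minus that in females was 3.42 ± 1.11 for C1ra (limma unadjusted p = 0.0045, adjusted p = 0.183), 3.57 ± 1.84 for C4a/C4b (adjusted p = 0.348) and 1.90 ± 0.86 for Serping1 (adjusted p = 0.294). No member was called in that test of the difference, where 0% of all tested probe sets were and 3917 had an unadjusted p under 0.05, so the strain difference was not shown to depend on sex.

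**Figure D4:**
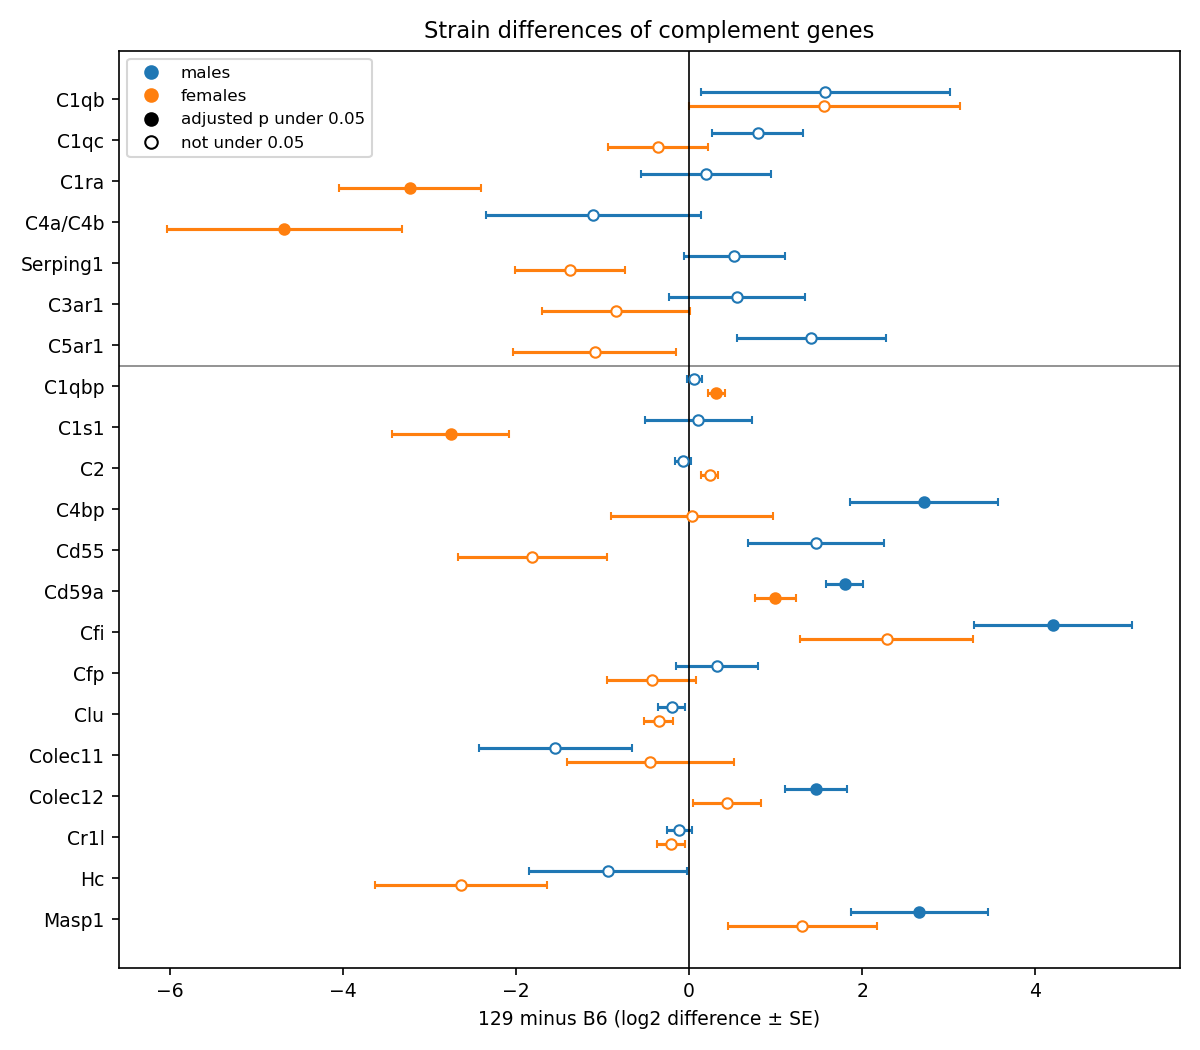
Log2 difference of 129 minus B6 ± SE (x axis) in males (upper point, blue) and females (lower point, orange) for the lead probe sets of the tested members and, under the line, 14 other complement genes; filled points have a limma adjusted p under 0.05. C1ra, C4a/C4b, C1s1 and C1qbp are filled in females alone, Cd59a in both sexes, and Cfi, Masp1, Colec12 and C4bp in males alone. C4bp exceeded background on 4 arrays, all of 129 males, and was tested only through these. Its points rest on values at background, and its filled point is not counted as a result.

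Sex was compared within each strain. Averaged over strain, 0 of the 10 member probe sets were called, where 0.321% of all tested probe sets were, although all 10 were positive for male minus female, with a median of 0.55 (C4a/C4b 1.73 ± 0.92, limma adjusted p = 0.311). Within 129, C1ra was 5.62-fold higher in males (2.49 ± 0.80, SE; adjusted p = 0.0473), 1 of 10 where 8.77% of all tested were called and 6.06% of all tested were called higher, a share near the background. C4a/C4b lay at 3.52 ± 1.32 (adjusted p = 0.0836) and Serping1 at 1.53 ± 0.62 (adjusted p = 0.109). The C1ra call was kept without 5 of the 18 arrays left out in turn and lost without the other 13, and it was lost with a random replicate block (2.54 ± 0.88, adjusted p = 0.121). Without 129 female Cdca7l 1(3), the array of that group with the highest values, C4a/C4b (4.51, adjusted p = 0.015), Serping1 (1.91, adjusted p = 0.031) and C1rb/C1ra (0.97, adjusted p = 0.0378) passed as well. Astrocyte markers were positive for 8 of 10 in this comparison, with a median of 0.89, and Slc1a3 was called higher. Within B6, 0 of 10 passed, where 0.0352% of all tested probe sets did, and C1ra lay at -0.93 ± 0.78, C4a/C4b at -0.050 ± 1.28 and Serping1 at -0.38 ± 0.60.

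Ordered by level over both plasmids, C1ra averaged 10.48 ± 0.99 in B6 females, 9.80 ± 0.77 in 129 males, 9.60 ± 1.41 in B6 males and 7.31 ± 2.96 in 129 females (SD). Serping1 averaged 12.22 ± 0.91 in 129 males, 12.02 ± 0.94 in B6 females, 11.69 ± 1.10 in B6 males and 10.69 ± 2.08 in 129 females. C4a/C4b averaged 9.21 ± 2.14 in B6 males, 9.14 ± 2.92 in B6 females, 8.10 ± 2.86 in 129 males and 4.58 ± 3.13 in 129 females. Neighbouring groups in each order differed by less than the larger of their SDs, apart from 129 females below the next group for C4a/C4b. Tests of whether the Cdca7l effect differed between the sexes, between the strains or in their combination called 0 of 10 members each, where 0% of all tested probe sets were called.

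Members varied together within the 2 patterns. Over the 37 arrays, the deviations of C1ra from its group means correlated at 0.94 with C1rb/C1ra, which shares its target, at 0.89 with Serping1 and at 0.72 with C4a/C4b (Pearson). C5ar1 correlated at 0.88 with C3ar1 and at 0.86 with C1qc, and C1qa at 0.93 with C1qc. Across the patterns values were lower or negative, at 0.02 between C1ra and C1qc, -0.01 between C4a/C4b and C1qb, -0.33 between Serping1 and C3ar1 and -0.42 between Serping1 and C1qb. These are descriptions over arrays that share clone labels and one processing, and the second set rests on few arrays. With the mean of the astrocyte markers, Serping1, C1ra and C4a/C4b correlated at 0.76, 0.84 and 0.81, and with that of the microglia and macrophage markers at -0.43, -0.28 and -0.24. C1qb, C5ar1 and C1qc correlated with the microglia and macrophage mean at 0.88, 0.81 and 0.71, and with the astrocyte mean at 0.00, 0.07 and 0.10. The mean of 10 interferon response genes correlated with both patterns, at 0.64 with C1ra, 0.55 with Serping1 and 0.44 with C4a/C4b, and at 0.51 with C1qc, 0.44 with C5ar1, 0.38 with C3ar1 and 0.37 with C1qb.

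The genes most alike in deviation over the 37 arrays differed between the patterns too. Serping1 was nearest to Lbp, which binds lipopolysaccharide (0.97), Tmem176b (0.97) and Tmem176a (0.95). C1ra was nearest to Reep1 (0.94), the interferon-inducible GTPase Gbp2 (0.93) and the NF-kB inhibitor Nfkbie (0.92), and C4a/C4b to Cdc42ep4 (0.95), Tst (0.93) and Itih3 (0.93). C1qb was nearest to the leukocyte antigen Cd52 (0.94), Laptm5 (0.90) and the macrophage receptor Adgre1 (0.90). C1qc was nearest to Rac2, a GTPase of blood cells (0.99), Slc15a3 (0.94) and the cytokine receptor chain Csf2rb (0.94). C5ar1 was nearest to Laptm5 (0.94), C3ar1 by its second probe set (0.93) and Slc15a3 (0.92), and C3ar1 to the chemokine Ccl3 (0.89), C5ar1 (0.88) and Laptm5 (0.87).

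Arrays that share a clone label were closer to each other than to the rest of their strain and sex. Over 15 same-label pairs the median absolute difference between Cdca7l and vector was 0.315 for Serping1, against 1.19 over 71 pairs of other labels. It was 0.846 against 1.27 for C1ra, 1.10 against 2.46 for C4a/C4b and 0.743 against 3.77 for C1qb. Within the same-label pairs Serping1 was higher with Cdca7l in 11 of 15, C4a/C4b in 10 and C1ra in 7. C4a/C4b differed by over 1 in 8 of the 15 pairs, in both directions, as for 129 male 3(3), at 11.65 with Cdca7l and 3.44 with vector, and 129 male 5(1), at 4.39 and 9.20. C5ar1 was higher with Cdca7l in 4 of the 15 pairs, but most pairs lay at background with both plasmids, where the sign means little. It differed by over 1 in 5 of the 15 pairs, with Cdca7l higher in 129 male 5(1) alone.

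**Figure D5:**
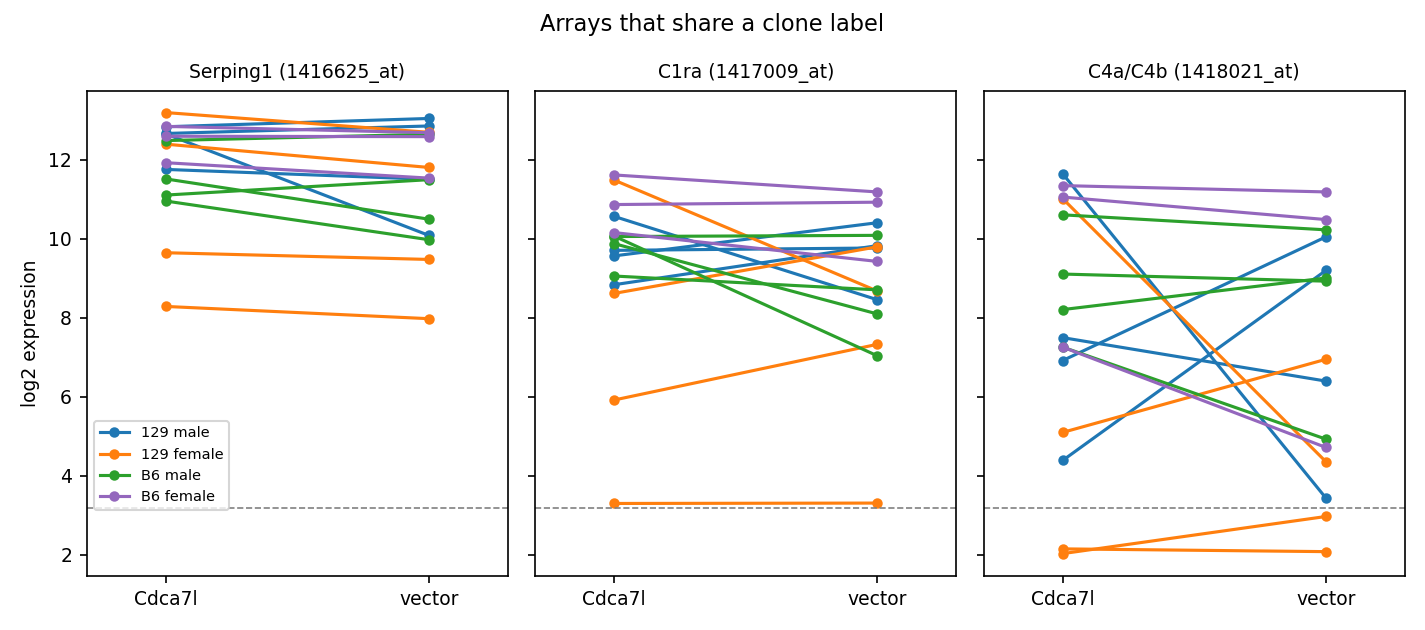
Log2 expression (y axis) of Serping1, C1ra and C4a/C4b on the 15 pairs of arrays with the same clone label (Cdca7l left, vector right; a line joins a pair, colours give strain and sex; the dashed line is the background level of 3.19). Serping1 lines are nearly flat for most pairs, and C4a/C4b lines cross.

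Of 47 other complement genes listed, 34 had a probe set and 14 were tested, and their calls were compared with those of the members. None was called for Cdca7l or for sex averaged over groups. For Cdca7l the differences furthest up were 0.67 ± 0.46 in C1s1, the other protease of the C1 complex, and 0.61 ± 0.35 in Cfp, properdin, and those furthest down -0.17 in Cd59a and -0.068 in Masp1. For male minus female Cfi lay at 1.08, and Colec11 (-1.03) and Cd59a (-0.33) were furthest down. C4bp had the largest fitted difference there but exceeded background on 4 arrays of 129 males and on none of the others, so no size is given. C1s1, which neighbours C1ra and C1rb on chromosome 6, was 6.76-fold lower in 129 females than in B6 females (-2.76 ± 0.68, SE; limma adjusted p = 0.006), at 8.99 ± 2.00 in 129 females and 11.70 ± 1.13 in B6 females (SD). Within 129 it was higher in males (2.11, adjusted p = 0.0431), and averaged over sex it was lower in 129 (-1.32 ± 0.46, adjusted p = 0.0331). C1s1 and C1ra were called in the same direction in these comparisons.

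Of the 14, Cd59a, Cfi, Masp1, Colec12 and C1qbp were higher in 129 averaged over sex, and Hc and C1s1 lower. Cd59a, which blocks the membrane attack complex, was higher in 129 averaged over sex (1.40 ± 0.16, SE; limma adjusted p = 8.61e-08), with 12.02 ± 0.40 in 129 males and 10.23 ± 0.43 in B6 males, and 11.95 ± 0.53 in 129 females and 10.94 ± 0.60 in B6 females (SD). Cfi, the protease that inactivates C3b and C4b, rose by 3.24 ± 0.68 in 129 (adjusted p = 0.000788). It was above background on 9 of 10 arrays of 129 males and 3 of 10 of B6 males. In females it was above on 4 of 8 arrays of 129 and 3 of 9 of B6. Cfi was called in males and not in females (limma adjusted p = 0.107), and with many values at background its size is uncertain. The lectin-pathway protease Masp1 rose by 1.99 ± 0.58 (adjusted p = 0.0132), the collectin Colec12 by 0.95 ± 0.27 (adjusted p = 0.00933) and C1qbp by 0.19 ± 0.068 (adjusted p = 0.0408). Hc, which encodes C5, was lower in 129 (-1.79 ± 0.67, adjusted p = 0.0496), close to the threshold. It was called in neither sex (limma adjusted p = 0.0622 in females and 0.57 in males). The calls of these other genes were not followed with arrays left out or with clone-label blocks. C4bp, a cofactor of factor I, was above background on 4 of 10 arrays of 129 males and 0 of 10 of B6 males. It met the filter for testing only through those 4 arrays, so its call in males is not counted as a result and no size is given. These 5 higher and 2 lower calls of 14 stand against 25.2% of all tested probe sets called. Regulators that did not pass included Cd55 (-0.17), Cr1l (-0.16) and Clu (-0.27). Fibroblast markers had 6 of 6 positive in that comparison, with a median of 2.88 and Col1a1, Col1a2, Col3a1 and Dcn called higher, and their part in these differences was not tested. Among the genes listed, C8b, C9, Mbl1, Mbl2, Fcna, Fcnb, Colec10, Cd46, Vsig4, Itgam and Vtn exceeded background on no array.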

How the data were processed

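RNA of 37 cultures was measured on 1-colour arrays. Per the labels, 10 ng of RNA with an integrity number above 9 was amplified before labelling. The authors deposited log2 expression values made with GCRMA in Partek 6.5, per the submitters' processing notes, and no source used here says whether all arrays were processed jointly. The log2 values ran from 1.17 to 15.3 and were used as deposited, so precision is limited by the number of arrays.

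Probe sets were named from the platform annotation (34958 with 1 symbol, 932 with several, 9211 with none). Those above 3.189, the median of the table, on at least 4 arrays were tested; 64 controls were left out and 19458 did not pass, which left 25579. One linear model in limma 3.58.1 (R 4.3.3) held all 8 groups, with 29 residual degrees of freedom, and gave 15 comparisons, with Benjamini-Hochberg adjustment over all tested probe sets at 0.05. No fold is given against a group at background on every array. The fit was tested on simulated data.

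Members and lists were chosen with earlier results of these data known. The lead probe set of a gene was its highest by mean among those with 1 symbol; for C1ra the planned rule, without that condition, would have taken C1rb/C1ra, given beside it. Likeness took the 3 nearest named genes. No 2 arrays were identical. Same-label deviations correlated at 0.376 to 0.775 in B6, taken as pairs, but as low as 0.061 in 129 females and -0.0887 in 129 males, which share a label only. Over all arrays the correlation within a label was 0.409. Alternatives covered filters, normalization, variance prior, array weights, clone-label blocks, 1 probe set per gene, fits of only the groups compared, and leaving out each array.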

Additional observations from a re-analysis of the deposited data

Results flagged for a closer look

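Of 64 groups of lead probe set values examined, 7 held 1 array far from the others with values above background. No chance rate is set beside this count, since the groups share arrays and the condition on background changes the rate. C1qa was 4.53 on the array labelled B6 female vector 5.1(1), where the others of its group lay at 2.13 to 2.15, and C1qc was 5.13 on that array, against 2.06 to 2.87 on the others. C1qc was 4.26 on B6 male Cdca7l 2(2), where the others lay at 2.05 to 2.14. C3ar1 was 4.97 on 129 male Cdca7l 3(2), against 2.44 to 2.62 on the others, and 5.52 on B6 male Cdca7l 5.6(1), against 2.44 to 2.47. Serping1 was 11.76 on 129 male Cdca7l 3(2), where the others lay at 12.66 to 12.84. C4a/C4b was 7.26 on B6 female Cdca7l 6(3), where the others lay at 11.06 to 11.55.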

How the results depend on the processing

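For 81 results, 846 values under other settings kept direction and side of the threshold; 16 turned direction, 12 passed newly and 14 no longer passed. No member passed for Cdca7l under any of them. Member probe sets called were, for 129 minus B6 averaged, 2, against 1 with no filter, with quantile normalization or with 1 probe set per gene, 6 with array weights (whose estimation stopped before convergence) and 0 with the random replicate block, and 1 to 3 with an array left out (C1ra lost without 22 of 37 arrays). In females they were 3, against 5 with weights, 1 with the random replicate block or 1 probe set per gene, 0 with the compared groups alone and 1 to 4 with an array left out. For male minus female they were 1 with weights averaged over strain; within 129 they were 1, against 4 with weights, 0 with quantile normalization, the random replicate block or the groups alone, and 0 to 4 with an array left out. For the strain difference between sexes they were 4 with weights and 0 to 1 with an array left out (C1ra 4.11, adjusted p = 0.032, without 129 female Cdca7l 1(3)). Uncalled differences turned: with weights C1qb 0.87, C1qc 0.0052, C4a/C4b -1.78, Serping1 -0.013, C1ra -0.28, C5ar1 0.034 and C1rb/C1ra -0.015 for Cdca7l in 129 females and C1qb -1.15 in B6 males; with quantile normalization C1ra -0.041 in 129 females; with the fixed replicate block C3ar1 0.081 and C5ar1 0.057 in B6 females. For 129 minus B6, C3ar1 became 0.085 with weights and 0.035 without both arrays that stand apart, a setting chosen after seeing the data, and C1rb/C1ra in males -0.019 with the random replicate block, and C4a/C4b for sex within B6 0.20 with that block and 0.22 without both arrays. Leaving out an array gave, for 129 minus B6, C1qc -0.018 to 0.36, C3ar1 -0.39 to 0.039 and C5ar1 -0.11 to 0.44, and in males C1ra -0.056 to 0.49 and C1rb/C1ra -0.091 to 0.11; for Cdca7l in 129 females C1ra -1.33 to 1.40, C1rb/C1ra -0.44 to 0.59, C3ar1 -0.041 to 0.11, C4a/C4b -0.997 to 2.00 and Serping1 -0.45 to 1.26; in 129 males C1ra -0.00079 to 0.57, C1rb/C1ra -0.042 to 0.28 and C4a/C4b -0.40 to 1.69; in B6 males C4a/C4b -0.83 to 1.04 and Serping1 -0.084 to 0.69; and for sex within B6 C4a/C4b -0.56 to 0.47. The cause was not tested; 4 to 5 arrays a group limit these differences.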
